A study of Mus musculus with 17 samples.

Results

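RNA of 10 genes of the autophagy machinery was followed in alveolar type 2 (AT2) cells, epithelial cells that make lung surfactant, sorted by flow cytometry. The genes were set by name, as core factors and a receptor of autophagy, and all 10 were found among the 43430 gene IDs of both count tables. They are the initiation kinase gene Ulk1, the lipid kinase subunit gene Becn1, the phosphoinositide-binding gene Wipi1, the conjugation genes Atg5 and Atg7, 4 genes of the ATG8 family (Map1lc3a, Map1lc3b, Gabarapl1 and Gabarapl2) and the receptor gene Sqstm1.

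All 17 libraries came from C57BL/6J mice aged 2 months, and the labels give no genotype other than this strain. The poly(A) set held 4 vehicle and 4 ISRIB libraries, collected 24 h after treatment from naive mice, meaning mice without bleomycin. ISRIB is a small molecule that acts on the translation factor eIF2B and lifts the block on translation that the integrated stress response imposes. In the total-RNA set 4 naive libraries stood beside 5 taken 14 days after bleomycin, a chemotherapy agent used to provoke lung injury and scarring in mice. The labels list vehicle as the treatment of all 9 total-RNA libraries, and the titles of these 9 and of the vehicle libraries say saline. They give no dose, sex or count of animals, so p-values measure the spread between these libraries. Each library is named by its group and the replicate number of its title.

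Autophagy delivers cytoplasm to lysosomes inside double-membraned vesicles. ULK1 starts the process, a lipid kinase complex with Beclin 1 (from Becn1) marks the growing membrane, and WIPI proteins bind the mark. ATG7 and ATG5 belong to the conjugation systems that attach ATG8 proteins (LC3 and GABARAP) to that membrane, where receptors such as p62 (from Sqstm1) bring in cargo. LC3 lipidation and p62 breakdown occur on protein, so RNA levels do not measure autophagic flux. AT2 cells hold lamellar bodies, lysosome-related organelles that store surfactant.

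Total counts ran from 10493574 to 15727139 per poly(A) library and from 3295257 to 6333166 per total-RNA library. Summed over 10 AT2 markers, the level was 215301 to 220290 CPM (the count scaled to the library total) in the poly(A) set and 52070 to 102302 in the total-RNA set; none of the 10 was at 0 in any group. Macrophage and monocyte markers (10 genes) summed to 10 to 35.9 CPM and lymphocyte markers (6 genes) to at most 0.91 CPM across all libraries. Airway epithelial markers (6 genes) were higher, at 2119 to 3797 CPM in the poly(A) and 411.2 to 872.3 CPM in the total-RNA set. The 6 alveolar type 1 markers summed to 1856 to 2064 CPM in the poly(A) set. In sorted bulk cells, fewer cells of a type and less RNA per cell cannot be told apart.

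Every member was measured well above the filter on low counts in the poly(A) set, where single libraries held 161 (Wipi1) to 6114 (Sqstm1) counts. The total-RNA set gave 30 (Gabarapl2) to 1434 (Sqstm1) counts. Levels between genes were compared as CPM per kilobase of the longest coding transcript. In vehicle libraries Sqstm1 was highest at 144.9 ± 6.21 (SD, n = 4), followed by Map1lc3a at 109.8 ± 5, Map1lc3b at 48.2 ± 2.83 and Gabarapl1 at 38.2 ± 1.55. The ranges of these 4 genes did not overlap. Atg7 (14.3 ± 0.77), Gabarapl2 (14.0 ± 0.33), Atg5 (13.6 ± 0.97), Ulk1 (11.4 ± 1.14) and Becn1 (11.3 ± 0.29) formed a lower tier. Each of those 5 overlapped its neighbour in the order. Wipi1 was lowest at 5.29 ± 0.43, below all of them. Naive total-RNA libraries gave the same first 4 in the same order, from Sqstm1 at 71.6 ± 4.17 to Gabarapl1 at 13.3 ± 0.22 CPM per kilobase (n = 4), with Atg7 last at 4.59 ± 0.77. Gabarapl1 overlapped the next gene there, Becn1 at 11.2 ± 1.45. The same 4 genes had the highest means in ISRIB libraries (140.1 ± 3.75, 118.8 ± 3.77, 52.1 ± 1.95 and 37.2 ± 2.40, n = 4) and in bleomycin libraries (82.0 ± 9.55, 41.5 ± 8.75, 23.2 ± 3.08 and 13.8 ± 3.87, n = 5), with Wipi1 last in both. In bleomycin libraries Gabarapl1 again overlapped Becn1, which was close behind at 13.7 ± 1.61. The order depends on the length used. Per kilobase of all merged exons, Gabarapl1 lay above Map1lc3b in vehicle (34.5 ± 1.40 against 16.9 ± 0.99) and naive (12 ± 0.20 against 8.30 ± 1.19) libraries, where the merged Map1lc3b model spans 7517 bases against 2633 in its longest coding transcript. On that scale Map1lc3a and Sqstm1 overlapped in ISRIB libraries (111.8 ± 3.55 and 111.6 ± 2.98), and in bleomycin libraries Map1lc3b (8.13 ± 1.08) came after Becn1 (8.49 ± 1.00) and Atg5 (8.47 ± 2.57), with overlapping ranges.

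Promoter sequence was examined as a feature the members might share. The RefSeq promoter table (GRCm38.p6, the same primary sequence as mm10) holds 250 bases before and 50 after each transcription start, and 8 of 10 members matched it; Becn1 and Map1lc3a did not. On both strands 6 motifs were searched. CACGTG, the E-box core of the CLEAR element bound by the lysosomal and autophagy regulator TFEB, was found at Atg5 and Atg7 and in 7.15% of all 32851 promoters. The longer palindromic form of the CLEAR element, which contains it, was found at no member and in 0.326% of promoters. TGACNNNGC, the core of the antioxidant response element bound by NRF2, was found at Map1lc3b and in 12.4% of promoters. TGACGTCA, the cAMP response element, was found at Atg5 and in 1.79% of promoters. TGATGNAA, a core of the elements bound by ATF4, and GTAAACA, a FOXO site, were found at no member, with 3.97% and 3.65% of promoters. Such matches describe letters in the window and are not evidence of binding.

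The windows below run from 200 bases before the start to 20 after it, 5′ to 3′ on the gene's strand, for the 3 members with a match and for Sqstm1, the most abundant member, with no match. Capitals mark the matched motifs. Those of Atg5 lie at positions -14 to -9 and -1 to 7, that of Atg7 at -132 to -127 and that of Map1lc3b at 5 to 13, where 1 is the first transcribed base. The RefSeq start of Atg7 lies well inside the longer GENCODE gene model, which begins at 114643097 on chromosome 6. A start at the upstream end of that model is not covered. The Atg7 match and base composition therefore hold for this window and may not describe the main promoter of the gene.

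Atg5 (chr10:44268139-44268358, plus strand): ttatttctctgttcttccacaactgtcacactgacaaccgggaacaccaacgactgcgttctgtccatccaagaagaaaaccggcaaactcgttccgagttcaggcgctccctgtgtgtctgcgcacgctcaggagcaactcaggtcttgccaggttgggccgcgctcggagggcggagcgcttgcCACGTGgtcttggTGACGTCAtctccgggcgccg
Atg7 (chr6:114670896-114671115, plus strand): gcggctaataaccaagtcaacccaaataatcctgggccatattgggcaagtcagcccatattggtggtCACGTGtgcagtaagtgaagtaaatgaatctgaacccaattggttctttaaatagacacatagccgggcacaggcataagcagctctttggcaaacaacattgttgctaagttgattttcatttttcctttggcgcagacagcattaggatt
Map1lc3b (chr8:121590238-121590457, plus strand): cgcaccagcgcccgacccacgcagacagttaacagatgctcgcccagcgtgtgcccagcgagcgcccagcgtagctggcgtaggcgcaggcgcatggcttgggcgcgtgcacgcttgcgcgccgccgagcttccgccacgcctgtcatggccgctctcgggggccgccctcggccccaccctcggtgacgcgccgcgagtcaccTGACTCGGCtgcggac
Sqstm1 (chr11:50210801-50211020, minus strand): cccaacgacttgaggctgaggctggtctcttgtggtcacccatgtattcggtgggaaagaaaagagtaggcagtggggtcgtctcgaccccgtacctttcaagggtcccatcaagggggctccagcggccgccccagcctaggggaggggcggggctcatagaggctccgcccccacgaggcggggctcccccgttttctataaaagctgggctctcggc

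The shown windows differed in base composition: G and C made up 43.2% of the Atg7 window, 59.1% of that of Atg5, 63.6% of that of Sqstm1 and 73.6% of that of Map1lc3b.

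The comparison of ISRIB with vehicle asked whether 24 h of ISRIB changed RNA levels of the autophagy machinery in AT2 cells of uninjured mice. None of the 10 members passed a Benjamini-Hochberg adjusted p of 0.05 by edgeR, against 2.20% of all 12054 genes tested (1.10% in each direction). That share stood for 265 genes, a count that fell to 86 without vehicle 1, 102 without vehicle 2 and 159 without ISRIB 4. DESeq2 and limma-voom also called none. At an unadjusted p under 0.05 edgeR gave 2 members, Map1lc3a higher and Atg7 lower, against 16% of all genes. DESeq2 and limma-voom gave 1 each at that limit. The groups did not overlap for the same 2 members, against 8.65% of all genes (4.26% higher and 4.39% lower). The median absolute log2 fold change was 0.07 over the members and 0.10 over all genes tested. With no filter on low counts the value over all genes was 0.21, with the members still at 0.07. The members were not matched to other genes by level. Airway markers summed to 3363 to 3797 CPM after vehicle and 2119 to 3723 CPM after ISRIB. Of them 1 was called lower, as was 1 of 10 AT2 markers, and no marker of another cell type was called. Their part in the member values was not tested. The plot of member levels in the poly(A) libraries shows how close the groups lay.

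**Figure D1:**
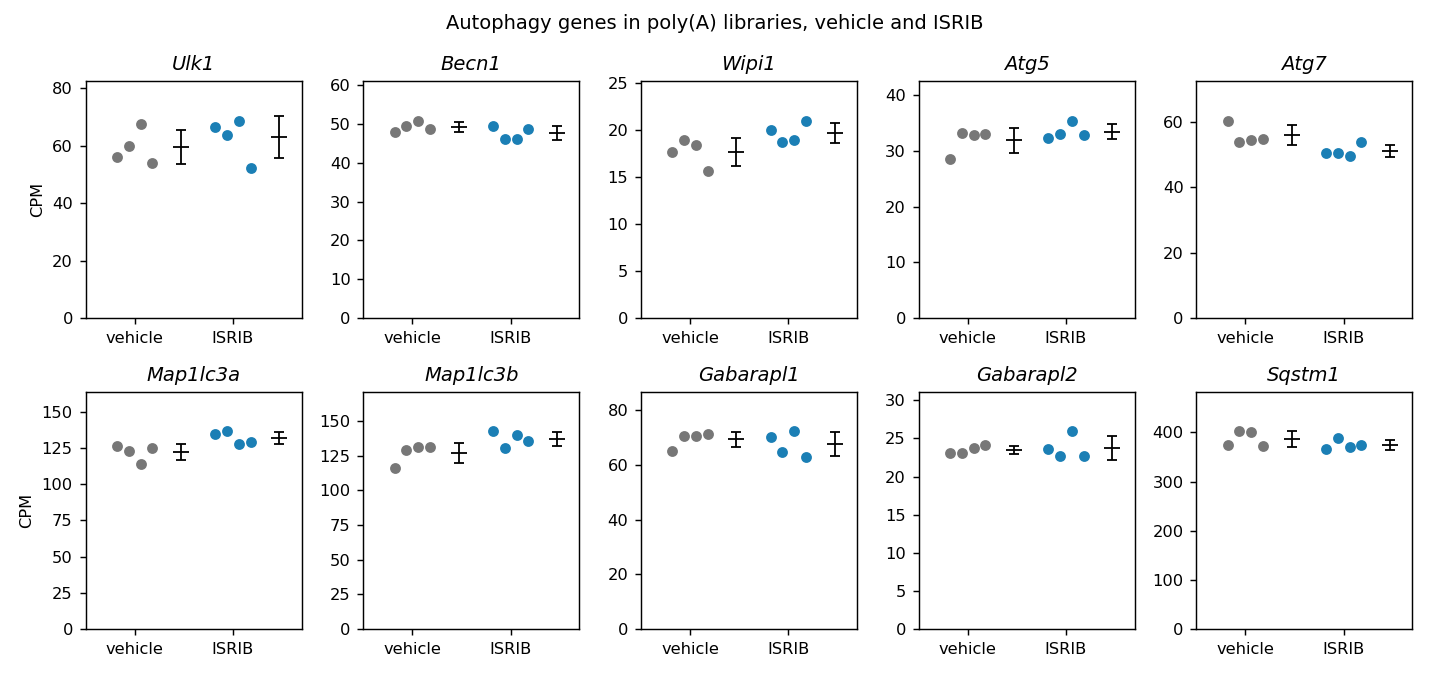
Level of each member in CPM (linear axis from 0) in 4 vehicle (grey) and 4 ISRIB (blue) poly(A) libraries, in order of replicate number, with the mean and SD beside each group in black. The groups separate only for Map1lc3a (vehicle up to 127 CPM, ISRIB from 128) and Atg7 (vehicle from 53.9 CPM, ISRIB up to 53.7).

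Among the ATG8 genes, Map1lc3a (ENSMUSG00000027602, chromosome 2, 155276297 to 155278073 in GENCODE M21 on GRCm38, as for all positions that follow), which encodes LC3A, stood at 127, 123, 114 and 125 CPM in vehicle libraries 1 to 4 and at 135, 137, 128 and 129 CPM in ISRIB libraries 1 to 4. The lowest ISRIB library lay just above the highest vehicle library. The log2 fold change was 0.11 (SE 0.05, edgeR adjusted p 0.294), with a 95% interval of 0.244% to 17.0%. Map1lc3b (ENSMUSG00000031812, chromosome 8, 121590361 to 121598760), the gene of the widely used autophagosome marker LC3B, stood at 116, 129, 132 and 131 CPM after vehicle and 143, 131, 140 and 136 CPM after ISRIB. Here 3 of 4 ISRIB libraries lay above all vehicle libraries. Its log2 fold change was also 0.11 (SE 0.06, edgeR adjusted p 0.336). Gabarapl1 (ENSMUSG00000030161, chromosome 6, 129533160 to 129542346) and Gabarapl2 (ENSMUSG00000031950, chromosome 8, 111940703 to 111953612) encode proteins of the GABARAP branch, which acts later in autophagosome formation. Gabarapl1 ranged from 65.2 to 71.3 CPM after vehicle and 63.1 to 72.4 after ISRIB, and Gabarapl2 from 23.1 to 24.2 and 22.7 to 25.9. For both genes the ISRIB range enclosed the vehicle range, with log2 fold changes of -0.04 (SE 0.06) and 0.01 (SE 0.07).

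Of the conjugation genes, Atg7 (ENSMUSG00000030314, chromosome 6, 114643097 to 114860614), the E1-like enzyme that activates ATG8 proteins and ATG12, stood at 60.3, 53.9, 54.5 and 54.6 CPM after vehicle and 50.4, 50.5, 49.6 and 53.7 CPM after ISRIB. All 4 ISRIB libraries lay below all vehicle libraries. The log2 fold change was -0.13 (SE 0.06, edgeR adjusted p 0.307). Atg5 (ENSMUSG00000038160, chromosome 10, 44268358 to 44364291), whose product is joined to ATG12 in the complex that lipidates LC3, ranged from 28.5 to 33.2 CPM after vehicle and 32.4 to 35.4 after ISRIB. Its groups overlapped, and the log2 fold change was 0.07 (SE 0.07).

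The receptor gene Sqstm1 (ENSMUSG00000015837, chromosome 11, 50199366 to 50210827) stood at 374, 402, 401 and 372 CPM after vehicle and 366, 389, 370 and 374 CPM after ISRIB. The groups overlapped, and the 95% interval of the difference ran from -10.1% to 4.04% (log2 fold change -0.05, SE 0.05, edgeR adjusted p 0.705). Of the upstream genes, Ulk1 (ENSMUSG00000029512, chromosome 5, 110784488 to 110810097) ranged from 54.0 to 67.5 CPM after vehicle and 52.3 to 68.7 after ISRIB. Becn1 (ENSMUSG00000035086, chromosome 11, 101285952 to 101302286) ranged from 47.9 to 50.8 and from 46.1 to 49.5. Wipi1 (ENSMUSG00000041895, chromosome 11, 109573331 to 109611967) ranged from 15.6 to 18.9 and from 18.7 to 21. These 3 genes had overlapping groups and log2 fold changes of 0.08 (SE 0.09), -0.05 (SE 0.06) and 0.15 (SE 0.09). Over the 10 members the 95% intervals stayed between -16.4% (Atg7) and 26.3% (Wipi1).

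Bleomycin was compared with naive libraries to see how the same genes stood 14 days after lung injury. None of the 10 members was called by edgeR, against 20.5% of all 11223 genes tested, and none by DESeq2 or limma-voom. At an unadjusted p under 0.05 edgeR and limma-voom gave 1 member, Becn1 by edgeR, and DESeq2 gave 0, against 33.3% of all genes by edgeR. No member had groups that did not overlap, against 19.7% of all genes (10.4% higher and 9.35% lower). The median absolute log2 fold change was 0.14 over the members and 0.31 over all genes tested. With no filter on low counts these were 0.15 and 0.84. The members were not matched to other genes by level. The plot of member levels in the total-RNA libraries shows these values.

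**Figure D2:**
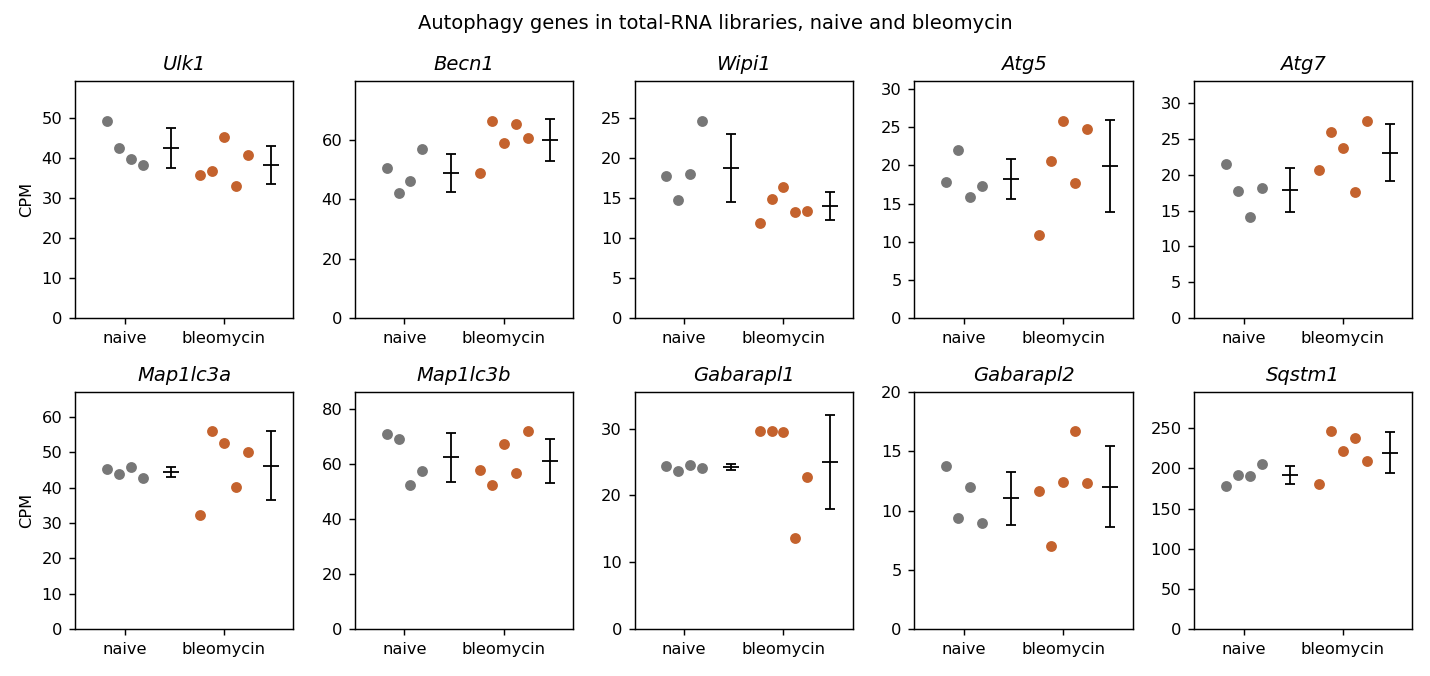
Level of each member in CPM (linear axis from 0) in 4 naive (grey) and 5 bleomycin (orange) total-RNA libraries, in order of replicate number, with the mean and SD beside each group in black. The groups overlap for all 10 members. Gabarapl1 runs from 23.7 to 24.6 CPM in naive libraries, closer together than counting noise would usually give, and from 13.6 to 29.6 in bleomycin libraries.

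Becn1 stood at 50.3, 42.1, 46.2 and 56.9 CPM in naive libraries 1 to 4 and at 48.7, 66.4, 59.0, 65.3 and 60.5 CPM in bleomycin libraries 1 to 5. All bleomycin libraries but bleomycin 1 lay above the highest naive library. The log2 fold change was 0.30 (SE 0.14, edgeR adjusted p 0.132), with a 95% interval of 0.93% to 50.1%. Without bleomycin 1 it was 0.37 (adjusted p 0.0465), past the threshold. That library also held the lowest AT2 marker sum of the set, 52070 CPM, and was the lowest bleomycin library for 5 of 10 members; bleomycin 2, with the next lowest AT2 sum (65706 CPM) and the highest fibroblast sum (129.8 CPM), had the highest Becn1 and Sqstm1 levels. The part of cell makeup in these values was not tested. Ulk1 ranged from 38.2 to 49.3 CPM in naive and 33.1 to 45.2 in bleomycin libraries, a log2 fold change of -0.14 (SE 0.14). Wipi1 stood at 17.8, 14.7, 18.0 and 24.7 CPM in naive and 11.9, 15, 16.4, 13.3 and 13.5 CPM in bleomycin libraries. Here 3 of 5 bleomycin libraries lay below all naive libraries, and the log2 fold change of -0.41 (SE 0.20, edgeR adjusted p 0.170) was the lowest among the members. Without naive 4, the highest naive library, it was -0.26 (adjusted p 0.5).

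Atg7 had the highest log2 fold change of the members, 0.38 (SE 0.19, edgeR adjusted p 0.175). It stood at 21.5, 17.7, 14.1 and 18.2 CPM in naive and 20.6, 26.0, 23.7, 17.6 and 27.6 CPM in bleomycin libraries, with 3 of 5 bleomycin libraries above all naive ones. Its partner in conjugation Atg5 ranged from 15.9 to 22.0 CPM in naive and 10.8 to 25.9 in bleomycin libraries, and the bleomycin range enclosed the naive range (log2 fold change 0.14, SE 0.23). Sqstm1 stood at 178, 192, 191 and 205 CPM in naive and 181, 246, 222, 237 and 210 CPM in bleomycin libraries. Of the 5 bleomycin libraries 4 lay above the highest naive library, and the log2 fold change was 0.20 (SE 0.11, edgeR adjusted p 0.244). The interval for Sqstm1 ran from -2.94% to 35.2%.

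None of the 4 ATG8 genes was called after bleomycin. Map1lc3a ranged from 42.6 to 45.9 CPM in naive and 32.3 to 55.9 in bleomycin libraries, a coefficient of variation of 3.36% against 21.1%. For Gabarapl1 these coefficients were 1.67% and 28.1%, for Gabarapl2 20.5% and 28.6%, and for Map1lc3b 14.4% and 13.3%. Naive counts were 73, 111, 82 and 81 for Gabarapl1 and 135, 205, 153 and 143 for Map1lc3a. Counting noise alone would usually give larger coefficients at such counts than the 1.67% and 3.36% seen. Over all genes, the chi-squared per degree of freedom ran from 7.57 to 48.1 between bleomycin libraries and from 4.22 to 18.6 between naive libraries. That measure grows with depth where libraries differ beyond counting noise. Totals reached 6333166 counts in bleomycin and 4654479 in naive libraries. Bleomycin 1 and 4, with totals of 3889141 and 3299824, gave 17.9. Naive 3 and 4, with totals of 3438133 and 3353419, gave 4.22, and naive 1 and 2 gave 18.6. The pair with the highest totals, bleomycin 3 and 5, gave 7.57, the lowest bleomycin value. Neither a difference in spread nor the part of depth in it was tested. The log2 fold changes were 0.07 (SE 0.16) for Map1lc3a, -0.03 (SE 0.13) for Map1lc3b, 0.06 (SE 0.20) for Gabarapl1 and 0.12 (SE 0.26) for Gabarapl2. The sign for Map1lc3b turned with scaling by library totals (0.045). Gabarapl2 was the least deeply counted member here, with 30 to 80 counts a library, and its interval ran from -26.1% to 59.8%. The plot of log2 fold changes sets the intervals of both comparisons side by side. Since kit, RNA input and depth differed between the sets, no value was tested between them.

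**Figure D3:**
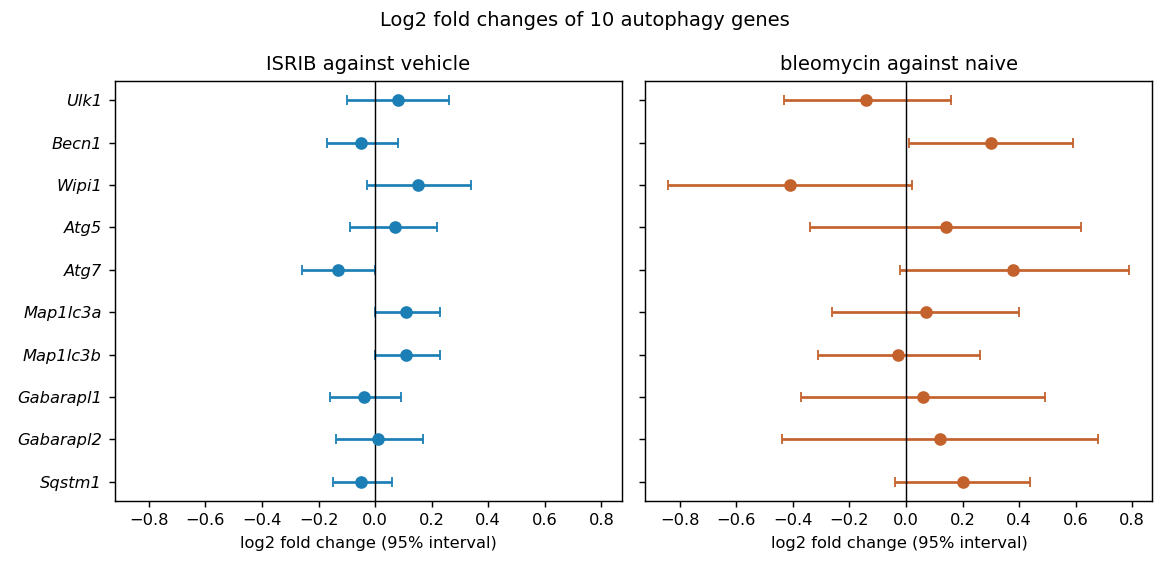
Log2 fold change of each member (points) with its 95% interval (bars) from edgeR, ISRIB against vehicle on the left and bleomycin against naive on the right, on one scale. Points run from -0.13 to 0.15 on the left and from -0.41 to 0.38 on the right, with wider intervals on the right; none passes the adjusted threshold.

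Markers of some other cell types differed in the bleomycin comparison, where 11.2% of all genes were called higher and 9.31% lower. Of the 10 AT2 markers, 2 were called higher and 1 lower. The 6 alveolar type 1 markers summed to 1004 to 1206 CPM in naive and 1708 to 2115 CPM in bleomycin libraries, and 5 of the 6 were called higher. Fibroblast markers (8 genes) summed to 5.07 to 12.7 CPM in naive and 18.9 to 129.8 CPM in bleomycin libraries, with 3 called higher and Lum at 0 throughout. Endothelial markers (6 genes) gave 13.1 to 20.9 and 13.9 to 56.3 CPM, with 1 called higher. Airway markers gave 411.2 to 814.1 and 487.7 to 872.3 CPM, also with 1 called higher. The sums of these last 2 classes overlapped between the groups. No macrophage and monocyte, neutrophil or lymphocyte marker was called. The part of these cells in the member values, and in those of the other autophagy genes below, was not tested. Counts per gene may also gain or lose reads in exons shared with other models where strand was not used. Exons of Becn1 share 3104 bases with Cntd1 on the opposite strand, those of Sqstm1 580 with Mrnip, those of Gabarapl1 570 with 1700101I11Rik and those of Map1lc3b 58 with Zcchc14. Cntd1, Mrnip and 1700101I11Rik were counted at no more than 2.73 CPM in any library, while Zcchc14 reached 95.2 CPM. Reads left out of both genes would not show in these values.

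The rest of the pathway was read from a list of 58 other autophagy genes, of which all but Atg9b passed the filter in each set. After ISRIB edgeR called 0 of the 57 tested genes, against 2.20% of all genes. At an unadjusted p under 0.05 there were 2 higher and 3 lower by edgeR and by limma-voom, and 0 higher and 3 lower by DESeq2, while 16% of all genes passed that limit by edgeR. Neither of those tools called any. The median log2 fold change was 0.03, against -1e-04 over all genes, and groups did not overlap for 10.5% of the 57, against 8.65% of all genes. Closest to the threshold was Epg5, a tether for fusion of autophagosomes with lysosomes, named after its values were seen. Epg5 stood at 29.2, 30.0, 30.7 and 27.9 CPM after vehicle and 25.5, 26.0, 21.1 and 25.1 CPM after ISRIB, with all ISRIB libraries below all vehicle libraries (log2 fold change -0.27, SE 0.08, edgeR adjusted p 0.096).

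After bleomycin 7 of the 57 genes were called by edgeR, 12.3% against 20.5% of all genes. Of these 3 rose and 4 fell, while 11.2% of all genes were called higher and 9.31% lower. A difference between these shares was not tested. The genes that rose were Sesn2, Snap29 and Vmp1, and those that fell were Atg13, Atg4c, Calcoco1 and Tecpr1, as marked in the plot of the other autophagy genes. By class, 1 of 4 genes of the initiation complex, 1 of 10 of ATG8 conjugation and 1 of 14 receptors and adaptors fell, 1 of 8 of lipid transfer and 1 of 7 upstream regulators rose, 1 of 7 of fusion with lysosomes rose and 1 fell, and 0 of 7 of the lipid kinase complex passed. Groups did not overlap for 15.8% of the 57 genes, against 19.7% of all genes.

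**Figure D4:**
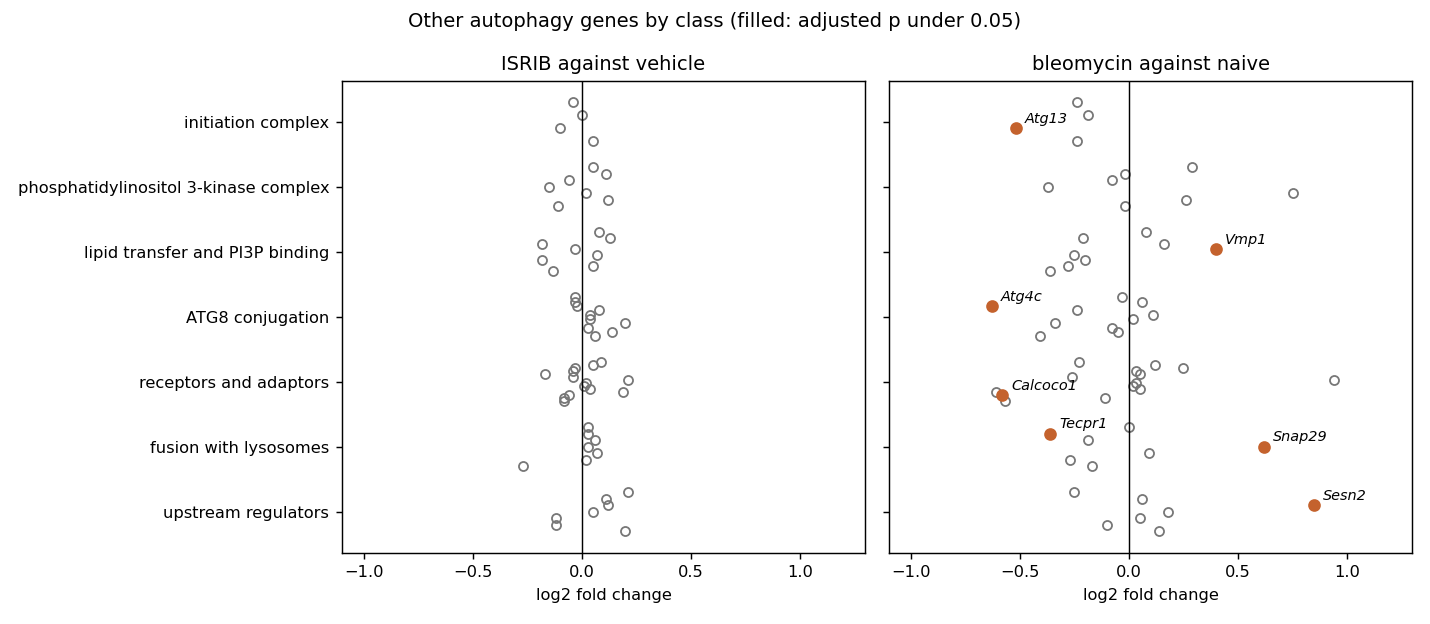
Log2 fold change of 57 other autophagy genes by class, ISRIB against vehicle on the left and bleomycin against naive on the right; open points did not pass and filled, named points passed an adjusted p of 0.05 by edgeR. No point is filled on the left, where values run from -0.27 to 0.21, and 7 are filled on the right, from Atg4c at -0.63 to Sesn2 at 0.85.

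Sesn2, which encodes a leucine-sensing inhibitor of mTORC1 and lies upstream of autophagy, rose from 18.8, 25.0, 17.1 and 18.8 CPM in naive libraries to 38.9, 44.8, 30.5, 29.4 and 37.2 CPM in bleomycin libraries. The lowest bleomycin library was above the highest naive one. The log2 fold change was 0.85 (SE 0.18, edgeR adjusted p 0.00246). Snap29, a SNARE for fusion of autophagosomes with lysosomes, rose from 33.9 ± 1.87 CPM in 4 naive libraries to 52.2 ± 12.8 CPM in 5 bleomycin libraries (SD), with a log2 fold change of 0.62 (SE 0.17, edgeR adjusted p 0.0123). Its groups also did not overlap, with bleomycin 4 highest at 73.6 CPM. Sesn2 and Snap29 passed the threshold under every alternative run. Vmp1, which encodes a lipid scramblase, rose from 96.5 ± 5.19 to 127.3 ± 15.7 CPM (log2 fold change 0.40, SE 0.12, edgeR adjusted p 0.0192). Its groups did not overlap, and its exons also hold the model of Mir21a on the same strand. The Vmp1 call was lost without naive 1 (adjusted p 0.0623), naive 3 (0.0708) or naive 4 (0.065).

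Among the genes that fell, Atg13, a subunit of the ULK1 complex, went from 44.6 ± 8.04 CPM over the naive to 31.0 ± 4.07 CPM over the bleomycin libraries, a log2 fold change of -0.52 (SE 0.16, edgeR adjusted p 0.0230). Atg4c, a protease that trims ATG8 proteins, went from 17.7 ± 1.5 to 11.4 ± 1.58 CPM (-0.63, SE 0.20, adjusted p 0.0330). The groups did not overlap for either gene. For Atg13 they nearly touched, at 36.546 CPM in bleomycin 3 and 36.562 CPM in naive 1. Scaled by library totals, its groups overlap. Calcoco1, a receptor for selective autophagy of the endoplasmic reticulum, went from 64.3 ± 4.27 to 42.7 ± 11.4 CPM (-0.58, SE 0.17, adjusted p 0.0219), with bleomycin 4 lowest at 24.4 CPM and no overlap. Tecpr1, a tether at lysosomes, went from 84.3 ± 10.8 to 65.6 ± 6.44 CPM with overlapping groups (-0.36, SE 0.12, adjusted p 0.0477). With scaling by library totals, which moved the median of all genes from 0.0026 to 0.071, none of these 4 passed (adjusted p 0.0626, 0.0635, 0.0527 and 0.105 in the order above). These calls were also lost with fewer libraries. The Atg13 call was lost without naive 2 (0.127) or naive 4 (0.0509), and Calcoco1 without naive 2 (0.0714) or naive 3 (0.059). Atg4c was lost without any of the 4 naive libraries (0.0535 to 0.102), without bleomycin 2 (0.057), without bleomycin 3 (0.0676) and with no filter on low counts (0.116). Tecpr1 was lost without naive 1, 3 or 4 (0.0858 to 0.167) and without bleomycin 2, 4 or 5 (0.057 to 0.116), and was not called with no filter (0.118), by DESeq2 (0.0591) or by limma-voom (0.0598). The log2 fold changes without single libraries stayed at -0.61 to -0.39 for Atg13, -0.69 to -0.58 for Atg4c, -0.68 to -0.44 for Calcoco1 and -0.44 to -0.30 for Tecpr1.

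**Figure D5:**
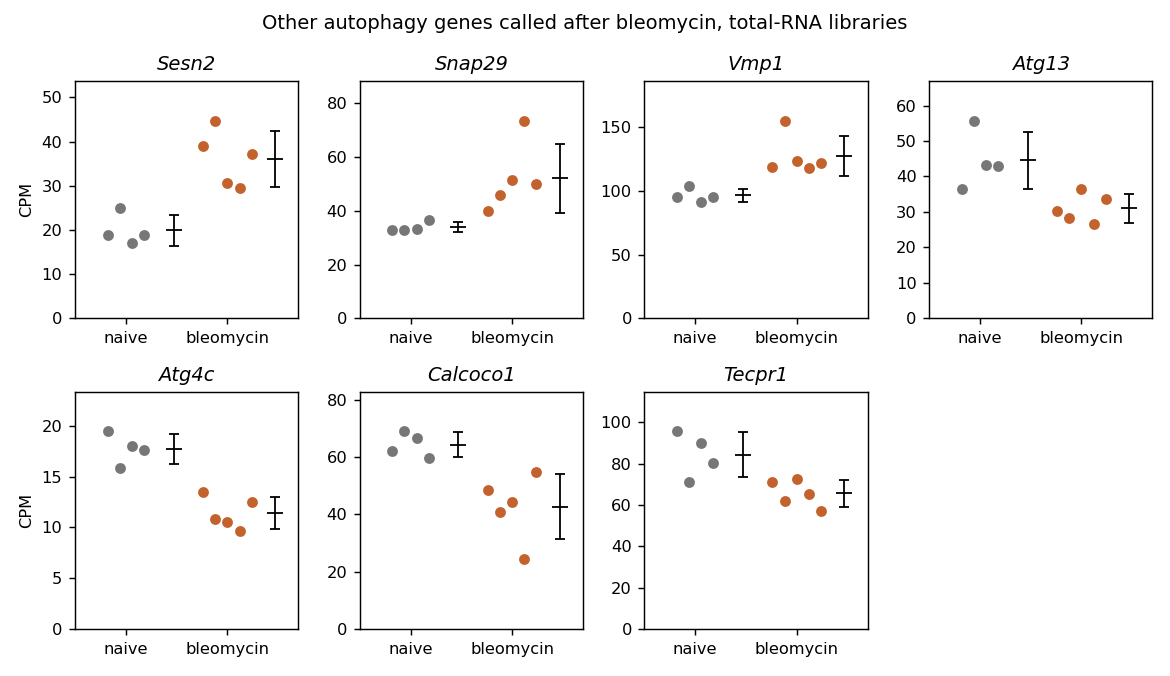
Level in CPM (linear axis from 0) of the 7 other autophagy genes called after bleomycin, in 4 naive (grey) and 5 bleomycin (orange) total-RNA libraries, with the mean and SD beside each group in black. Sesn2, Snap29 and Vmp1 lie higher and Atg13, Atg4c and Calcoco1 lower in every bleomycin library, while Tecpr1 overlaps (71.1 to 95.6 against 57.0 to 72.5 CPM). The Atg13 groups nearly touch, at 36.562 CPM in naive 1 and 36.546 CPM in bleomycin 3.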

How the data were processed

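RNA-seq was done on sorted AT2 cells with a poly(A) kit (NEBNext Ultra, 3 ng total RNA) or a stranded total-RNA kit (SMARTer Pico v2, 0.35 ng), per the labels' protocols. The deposited tables hold read counts per Ensembl gene ID as whole numbers, not normalized. bcl2fastq 2.19.1, FastQC, Trimmomatic 0.36, STAR 2.6.0, HTSeq 0.11.2 and mm10 are named in the submitters' processing notes; for the counting, neither annotation nor strand setting is stated there. Symbols and positions came from GENCODE M21 (GRCm38), which named 42546 of the 43430 IDs.

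Each table was fitted alone, since kit, input and depth differed. Genes were kept by filterByExpr (minimum count 10, minimum total 15), scaled by TMM and tested by quasi-likelihood in edgeR 4.0.16 (R 4.3.3), with Benjamini-Hochberg adjustment over all genes tested and a threshold of 0.05. The SE is the absolute log2 fold change, estimated without shrinkage, divided by the root of F. The 95% intervals are centred on that estimate, so the printed log2 fold change can lie slightly off their centre. CPM used effective library sizes, except marker sums and overlapping genes, which used library totals. Alternatives were RLE size factors, library totals, no filter, DESeq2 1.42.0, limma-voom (limma 3.58.1), a replicate block and leaving out each library. Replicates of a group differed by more than counting noise (chi-squared per degree of freedom 3.53 to 9.07 in the poly(A) and 4.22 to 48.1 in the total-RNA set). None was therefore the same library sequenced again. This cannot show that the libraries came from separate animals. Depth was 3295257 to 6333166 counts in the total-RNA and 10493574 to 15727139 in the poly(A) set.

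All members were named, and of the 58 other autophagy genes those past the threshold; genes named outside that rule are marked. The members, lists and markers were chosen with earlier results of these data known.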

Additional observations from a re-analysis of the deposited data

Results flagged for a closer look

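Each of 54 groups of libraries (the 10 members in 4 groups, and the 7 other autophagy genes called after bleomycin in 2 groups) was tested for a library far from the rest by Dixon's ratio, with limits of 0.829 for 4 and 0.71 for 5 libraries. Chance gives about 1 such group in 20, and 6 were found. Vehicle 1 stood apart for 4 members. It was lowest for Atg5 at 28.495 CPM (others 32.778 to 33.194), for Gabarapl1 at 65.231 CPM (others 70.472 to 71.318) and for Map1lc3b at 115.821 CPM (others 129.34 to 131.57). It was highest for Atg7 at 60.322 CPM (others 53.907 to 54.628). Without vehicle 1 the log2 fold changes of these 4 genes after ISRIB were 0.015, -0.065, 0.072 and -0.091 in this order, none past the threshold by edgeR. In the total-RNA set naive 4 was highest for Snap29 at 36.66 CPM (others 32.69 to 33.328), and bleomycin 2 was highest for Vmp1 at 155.194 CPM (others 117.572 to 123.264). Bleomycin 2 also held the highest fibroblast marker sum of its set, 129.8 CPM; its part in the Vmp1 value was not tested. Without bleomycin 2 Vmp1 had a log2 fold change of 0.32 (edgeR adjusted p 0.038), and without naive 4 Snap29 had one of 0.65 (edgeR adjusted p 0.0298).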

How the results depend on the processing

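No member was called in either comparison under any alternative, except Becn1 after bleomycin, which passed at a log2 fold change of 0.37 without bleomycin 1 (adjusted p 0.0465; range without single libraries 0.23 to 0.38). Signs turned only for members near 0. After ISRIB this was Gabarapl2 (-0.029 to 0.034 without single libraries; -0.029 without ISRIB 3). After bleomycin it was Map1lc3a (-0.0053 to 0.17; -0.0053 without bleomycin 2), Gabarapl1 (-0.0021 to 0.21; -0.0021 and -0.001 without bleomycin 2 and 3), Gabarapl2 (-0.0096 to 0.27; -0.0096 without bleomycin 4) and Map1lc3b (-0.1 to 0.034; 0.034, 0.028, 0.031 and 0.0035 without naive 1, naive 2, bleomycin 2 and bleomycin 4, and 0.045 with library totals). The cause was not tested. The 265 genes called after ISRIB became 648 with no filter and 86 to 269 without single libraries; the 2304 after bleomycin stayed within 1.5 times (1554 to 2584 without single libraries). Library totals moved the median of all genes to 0.0156 and 0.071. Deviations of libraries with the same replicate number correlated at -0.109 to 0.085 in the poly(A) and -0.039 to 0.047 in the total-RNA set (4 pairs each), so the numbers were not taken to pair libraries. With the replicate block 277 and 2187 genes were called, with no member among them. Atg4c (edgeR adjusted p 0.0607) and Tecpr1 (0.12) were lost after bleomycin, but other genes of the list were gained. The list still had 3 genes called higher and 4 lower of 57, as in the main fit. With no filter 4 were called higher and 3 lower of 58. Gabarapl2 had the fewest counts of the members in the total-RNA set, 30 to 80 a library.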

Other observations

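Values of 3 other autophagy genes that did not pass the threshold in the comparison given are added here, chosen after they were seen. Retreg1, a receptor for autophagy of the endoplasmic reticulum, stood at 81.5, 89.1, 89.4 and 89.8 CPM after vehicle and 76.3, 79.8, 80.1 and 75.5 CPM after ISRIB, with no overlap (log2 fold change -0.17, SE 0.05, edgeR adjusted p 0.131). Ccpg1, another receptor for that process, stood at 27.8, 25.0, 34.5 and 24.4 CPM in naive and 16.4, 17.7, 24.0, 10.2 and 22.0 CPM in bleomycin libraries, also with no overlap (-0.61, SE 0.22, edgeR adjusted p 0.0548). Ccpg1 shares 2170 exon bases with Pigb on the opposite strand and 3213 with Gm44503 on the same strand, so its counts are uncertain. Sesn2, which rose after bleomycin, ranged from 32.6 to 45.1 CPM after vehicle and 39.7 to 47.8 CPM after ISRIB (0.12, SE 0.09, edgeR adjusted p 0.565); a difference between both effects was not tested.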
